A study of Mus musculus with 6 samples.

Results

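The genes described here are the receptors of the epidermal growth factor (EGF) family with the proteins that restrain them and the proteases that release their ligands: Egfr, Erbb2, Erbb3, Erbb4, Errfi1, Lrig1, Adam10 and Adam17. They were taken by gene symbol from the platform annotation, which gave 23 probe sets for these 8 genes, of 45101 probe sets and 18194 genes in all. A probe set is a group of short probes on an Affymetrix array that reads 1 transcript or a few related ones. RNA came from ovarian granulosa cells of immature mice, 23 days old, on 6 arrays. The knockout mice lacked ERK1 (ERK1 knockout) and carried ERK2 fl/fl with Cyp19CRE, a Cre driven by the promoter of the aromatase gene, and gave 1 array at each of 0 h, 2.5 h and 4 h after human chorionic gonadotropin (hCG). Wild type mice gave 1 array at the same 3 times. All mice had received 5 IU of equine chorionic gonadotropin, which drives follicle growth, with 48 h of treatment stated for every array, and the later arrays followed 5 IU of hCG, a gonadotropin that acts on the receptor of luteinizing hormone and triggers ovulation. The labels name no replicates and do not say how many animals gave each RNA, so a difference between any 2 arrays comes without a replicate error.

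The EGF receptor and its relatives Erbb2, Erbb3 and Erbb4 are cell surface tyrosine kinases that work as pairs. In the ovulatory follicle, granulosa cells respond to luteinizing hormone by making EGF-like ligands as membrane-bound precursors, which metalloproteases such as Adam17 and Adam10 cut free, and the ligands then activate the EGF receptor on granulosa and cumulus cells and, through it, the kinases ERK1 and ERK2. Errfi1 (also called MIG6) binds the kinase domain of activated ErbB receptors and inhibits them, and Lrig1 is a membrane protein that promotes receptor degradation.

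Errfi1 was the member with the widest differences. Its signal rose about 7-fold and then 11-fold in wild type cells after hCG, stayed under 2-fold in knockout cells, and ended an order of magnitude lower in knockout than in wild type. The transcripts of the receptors and sheddases moved less. By its brightest probe set, Egfr was higher in knockout than in wild type at 2.5 h and fell in wild type by 4 h. A dimmer Egfr probe set over the floor did not fall in wild type. The other members measured stayed within 2-fold in every comparison.

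Values are RMA intensities as deposited, which are linear and rounded to whole numbers. An intensity of 64 (log2 of 6) served as the floor, and dimmer readings were treated as near background. A gene is represented by its brightest probe set, and it counted as different between a pair of arrays when the values differed at least 2-fold and the brighter reached the floor. Of the 8 members, 7 were over the floor on every array, so none entered through the array on which it was high. Erbb4 had 1 probe set, with intensities of 13 to 17 on the knockout arrays and 13 to 14 on the wild type arrays, all under the floor, so its differences are not read here. Of the 23 probe sets, 15 had a mean over the floor. Array medians were 54 or 55, and 47.1% to 47.6% of probe sets reached the floor on each array. The ratio of the 3' to the 5' probe set of Gapdh is a measure of RNA integrity. On the knockout arrays it was 5.21, 3.99 and 4.24 at 0 h, 2.5 h and 4 h. On the wild type arrays it was 4.79, 3.55 and 4.01. The ratio was thus highest at 0 h in both genotypes, and higher in knockout at each time. Of 10 granulosa markers listed, 9 were on the array under a single symbol, among them Fshr, Inha and Foxl2. All 9 were over the floor on each of the 6 arrays. The genotype labels were taken as given, since probe sets of the targeted genes were not analysed here. The median log2 difference of the 11153 genes with a mean over the floor was -0.02 and 0.02 in knockout at 2.5 h and 4 h relative to 0 h, and -0.22 and -0.21 in wild type. Between knockout and wild type it was -0.03 at 0 h, 0.14 at 2.5 h and 0.20 at 4 h.

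Errfi1 lies on chromosome 4 (GRCm38.p6, chr4:150853796-150868889). In knockout cells its brightest probe set, 1416129_at, read 702 at 0 h, 1183 at 2.5 h and 1144 at 4 h. In wild type cells it read 1054, 7360 and 11607 at the same times. The wild type arrays after hCG stand far above the other 4 arrays, and each knockout array is below the wild type array of its time. The wild type signal was 6.98-fold its 0 h level at 2.5 h and 11-fold at 4 h, while the knockout signal was 1.69-fold and 1.63-fold its own 0 h level. Knockout was 1.5-fold lower than wild type at 0 h, 6.22-fold lower at 2.5 h and 10.1-fold lower at 4 h.

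The other Errfi1 probe set, 1419816_s_at, gave the same shape at a dimmer signal. Its suffix marks probes that can match more than one transcript. It read 131, 186 and 182 in knockout cells at 0 h, 2.5 h and 4 h, and 158, 1076 and 1929 in wild type cells. By this probe set the log2 difference of knockout from wild type was -0.27 at 0 h, -2.53 at 2.5 h and -3.41 at 4 h, against -0.59, -2.64 and -3.34 by the brightest. The 0 h difference was thus under 2-fold by either probe set.

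**Figure D1:**
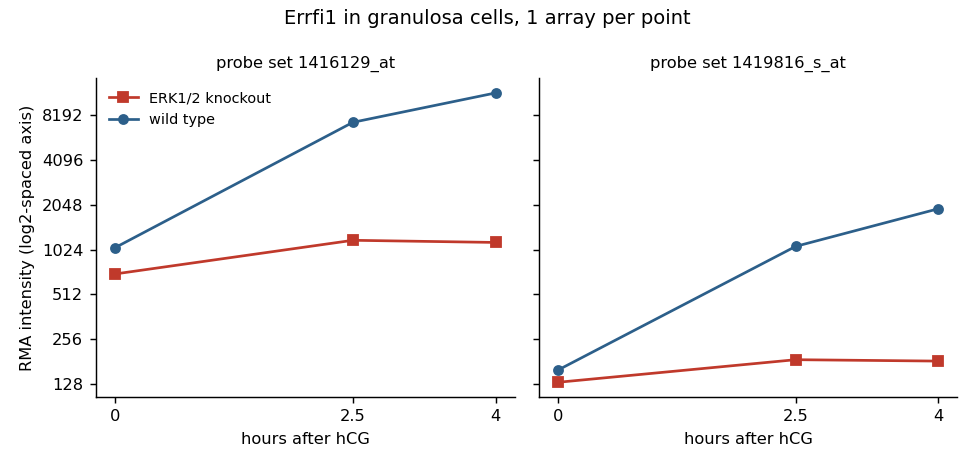
Intensity of the 2 Errfi1 probe sets (vertical axis, spaced by log2) against hours after hCG, with knockout as squares and wild type as circles, 1 array per point. In both panels the wild type line climbs at 2.5 h and again at 4 h, while the knockout line goes no higher than 1183 (left) and 186 (right).

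Among all 11153 genes over the floor, 53 had a lower log2 difference of knockout from wild type at 2.5 h than Errfi1, and 41 at 4 h. Its hCG response in knockout was smaller than that in wild type by 2.05 (log2) at 2.5 h, where 58 genes had a lower value, and by 2.76 at 4 h, where 45 did. The median of all genes for this difference between responses was 0.15 at 2.5 h and 0.22 at 4 h. In wild type, 62 genes had a larger log2 response than Errfi1 at 2.5 h and 64 at 4 h. In knockout, 570 and 787 did.

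The genes whose centred log2 values over the 6 arrays lay nearest to those of Errfi1 were Serpinb9, an inhibitor of granzyme B, at a Euclidean distance of 0.60 (Pearson r = 0.991), Ier5, an immediate early response gene, at 0.62 (r = 0.989), and Ndnf, a secreted protein, at 0.72 (r = 0.996). Serpinb9 read 316, 384 and 390 in knockout cells and 342, 2664 and 5868 in wild type cells at 0 h, 2.5 h and 4 h. For Ier5 the values were 63, 107 and 125 in knockout and 117, 1072 and 1040 in wild type, so its level at 4 h was not above that at 2.5 h. Ndnf read 96, 152 and 181 in knockout and 144, 756 and 1001 in wild type. The correlations are over 6 arrays that all these genes share, and they describe the pattern only.

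RefSeq places 2 Errfi1 starts on GRCm38.p6, and the 300-base windows around them (250 bases before to 50 after the start, plus strand) are shown because Errfi1 carries the response. Searched on both strands were the CRE (TGACGTCA), its core (TGACG, which lies inside each CRE), EGR (GCGNGGGCG), AP-1 (TGANTCA), the GC box (GGGCGG) and the CArG box of serum response factor. Capitals mark the CRE, or its core where it stands alone.
Errfi1 start at chr4:150853546-150853845: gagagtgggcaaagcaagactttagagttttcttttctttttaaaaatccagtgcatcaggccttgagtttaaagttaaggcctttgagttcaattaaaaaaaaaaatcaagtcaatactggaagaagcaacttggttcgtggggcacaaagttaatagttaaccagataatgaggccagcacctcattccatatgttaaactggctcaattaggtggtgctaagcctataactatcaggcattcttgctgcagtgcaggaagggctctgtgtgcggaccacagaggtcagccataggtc
Errfi1 start at chr4:150854820-150855119: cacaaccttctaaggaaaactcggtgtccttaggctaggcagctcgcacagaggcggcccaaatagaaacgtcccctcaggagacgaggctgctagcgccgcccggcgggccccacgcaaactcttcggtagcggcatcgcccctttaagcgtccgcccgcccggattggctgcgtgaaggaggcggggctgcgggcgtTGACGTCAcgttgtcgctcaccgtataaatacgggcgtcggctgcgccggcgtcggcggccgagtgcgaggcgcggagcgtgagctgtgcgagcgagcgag

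The downstream window holds 1 full CRE, the palindromic site known to bind CREB family factors of the cAMP response, at 150855019 to 150855026. Of 32851 windows of the same length in the RefSeq table, 1.79% hold a full CRE. The upstream window holds none of the 6 motifs. Windows were found for 7 of the 8 members, 8 windows in all, and the downstream Errfi1 window was the 1 of these with a full CRE. The CRE core alone, present in 20.8% of all windows, was also found once each in the windows of Adam10 and Erbb2, shown with 11 bases on either side.
Adam10, chr9:70678732-70679031, plus strand: gggtgccgtcgCGTCAcgtggcgagaa
Erbb2, chr11:98412234-98412533, plus strand: agcaagcgaggCGTCAgggcacagggc
No EGR motif (5.55% of all windows), AP-1 motif (7.81%) or CArG box (1.63%) lay in any of the 8 windows. The GC box, found in 35.7% of all windows, occurred in those of Adam10, Adam17, Egfr, Lrig1 and the downstream start of Errfi1. These matches describe letters in short windows and say nothing on binding.

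Lrig1, the other inhibitor, did not follow Errfi1. It lies at chr6:94604529-94700298. Its brightest probe set read 656, 566 and 585 in knockout cells at 0 h, 2.5 h and 4 h, and 711, 663 and 739 in wild type cells. Each knockout value was below the wild type value of its time, with log2 differences of -0.12, -0.23 and -0.34, and the 6 values spanned under 2-fold. The second probe set over the floor gave -0.04, -0.19 and -0.49.

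Egfr, the receptor of the ovulatory EGF-like ligands, lies at chr11:16752203-16913907. Its brightest probe set, 1435888_at, read 641, 965 and 457 in knockout cells at 0 h, 2.5 h and 4 h, and 632, 460 and 272 in wild type cells. The genotypes began within 1.01-fold of each other. In knockout the highest value came at 2.5 h, 1.51-fold the 0 h level, while wild type was lower at each later time. Knockout was 2.10-fold higher than wild type at 2.5 h and 1.68-fold higher at 4 h, and wild type at 4 h was 2.32-fold lower than at 0 h.

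Of 7 Egfr probe sets, 3 were over the floor, and their values differed at 4 h. The second, 1424932_at, read 330, 493 and 194 in knockout and 315, 241 and 192 in wild type. By it knockout was 2.05-fold higher at 2.5 h and 1.01-fold higher at 4 h, and wild type at 4 h was 1.64-fold lower than at 0 h. The third, 1460420_a_at, read 185, 284 and 241 in knockout and 207, 217 and 246 in wild type, so the knockout excess was 1.31-fold at 2.5 h and wild type at 4 h lay above 0 h. All 3 had their highest knockout value at 2.5 h and read higher in knockout than in wild type there.

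The 2-fold Egfr calls lay close to the threshold. With each array centred on the median of genes over the floor, the log2 difference of knockout from wild type at 2.5 h was 0.95 in place of 1.07, and that of wild type at 4 h from 0 h was -0.98 in place of -1.22. With cyclic loess these were 0.93 and -1.02, and the mean of all 7 probe sets, of which 4 are dim, gave 0.36 and -0.22.

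**Figure D2:**
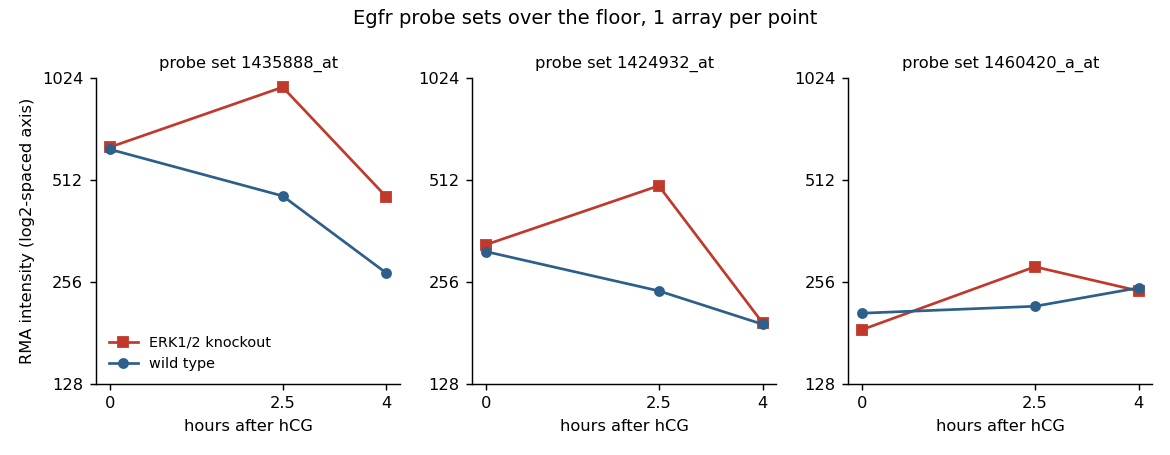
Intensity of the 3 Egfr probe sets over the floor (vertical axis, spaced by log2, the same range in each panel) against hours after hCG, knockout as squares and wild type as circles, 1 array per point. Each panel has its highest knockout point at 2.5 h (965, 493 and 284), and the genotypes are apart at 4 h in the left panel only, at 457 and 272.

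Genes nearest to the Egfr pattern over the 6 arrays were Cdk6, a cyclin-dependent kinase (distance 0.27, r = 0.991), Ptpn13, a tyrosine phosphatase (0.34, r = 0.981), and Zfp612, a zinc finger gene (0.36, r = 0.971). Cdk6 read 1016, 1891 and 728 in knockout cells at 0 h, 2.5 h and 4 h and 1025, 802 and 432 in wild type cells. Ptpn13 read 1309, 2293 and 944 in knockout and 1088, 934 and 520 in wild type. Like the brightest Egfr probe set, both had their highest value on the knockout array at 2.5 h and their lowest on the wild type array at 4 h.

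Erbb2, which has no known ligand of its own and serves as partner to the other receptors, lies at chr11:98412484-98437716. Its single probe set read 190, 154 and 200 in knockout cells at 0 h, 2.5 h and 4 h, and 229, 131 and 145 in wild type cells. Wild type at 2.5 h and 4 h was 1.75-fold and 1.58-fold lower than at 0 h, and knockout at 4 h was 1.05-fold its 0 h level. The log2 difference of knockout from wild type was -0.27 at 0 h, 0.23 at 2.5 h and 0.46 at 4 h.

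Erbb3, a neuregulin receptor with little kinase activity of its own, lies at chr10:128567523-128589635. The probe set over the floor read 199, 153 and 165 in knockout cells at 0 h, 2.5 h and 4 h, and 175, 93 and 92 in wild type cells. Each of the 3 knockout values was above the wild type value of its time, and the wild type arrays after hCG were the lowest of the 6. Knockout was 1.65-fold higher than wild type at 2.5 h and 1.79-fold higher at 4 h, and wild type was 1.88-fold and 1.90-fold lower than its 0 h level at those times. The other Erbb3 probe set stayed between 19 and 24, under the floor.

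The genes with the pattern nearest to Erbb3 were Zfp930, a zinc finger gene (distance 0.19, r = 0.986), Cenpf, a kinetochore protein (0.21, r = 0.982), and Mphosph9 (0.22, r = 0.984). Cenpf read 1049, 719 and 781 in knockout and 847, 514 and 463 in wild type at 0 h, 2.5 h and 4 h. Neither Erbb2, Lrig1, Adam10 nor Adam17 spanned 2-fold over the 6 arrays, so no nearest genes were sought for them.

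The sheddases read nearly the same in both genotypes before hCG. Adam10 (chr9:70678944-70780229), known to release betacellulin and EGF, read 4355, 3601 and 3552 in knockout cells at 0 h, 2.5 h and 4 h, and 4325, 3040 and 2921 in wild type cells. Adam17 (chr12:21323509-21373632), known to release amphiregulin, epiregulin and heparin-binding EGF, read 2655, 2466 and 2297 in knockout and 2649, 1900 and 1704 in wild type. For each gene the values after hCG lay below 0 h in both genotypes, and the wild type values lay lowest.

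Log2 differences of knockout from wild type were 0.01, 0.24 and 0.28 for Adam10 and 0.00, 0.38 and 0.43 for Adam17 at 0 h, 2.5 h and 4 h. Relative to the median of all genes these were 0.04, 0.10 and 0.09 for Adam10 and 0.04, 0.23 and 0.23 for Adam17. The other 2 Adam17 probe sets over the floor also put knockout above wild type after hCG, by 0.06 to 0.32. Those of Adam10 did so by 0.08 to 0.33, but put knockout after hCG above its 0 h level by 0.12 to 0.26, where the brightest put it below.

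**Figure D3:**
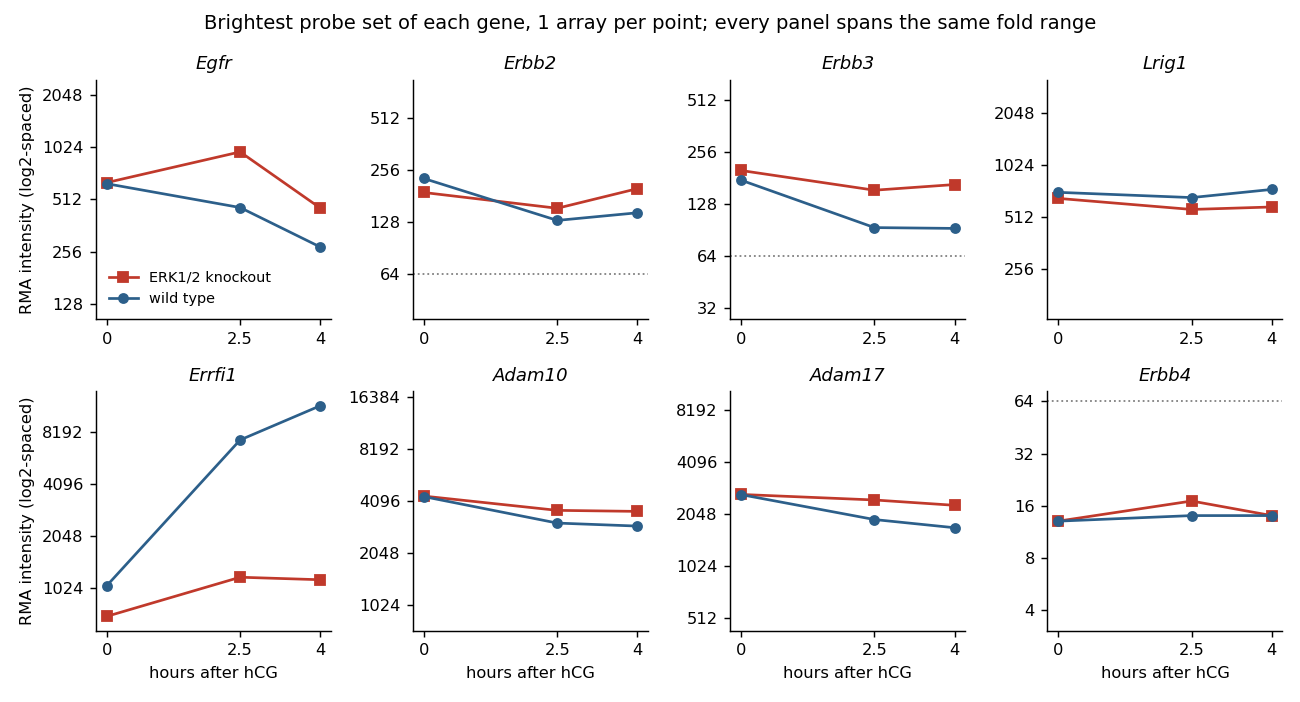
Intensity of the brightest probe set of each of the 8 genes (vertical axes, spaced by log2 and spanning the same fold range) against hours after hCG, knockout as squares and wild type as circles, 1 array per point, with a dotted line at the floor of 64 where it falls in range. Errfi1 separates the genotypes most, the Adam10 and Adam17 lines start together and part slightly after hCG, and Erbb4 stays at 13 to 17.

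Counted over the members, knockout cells had 0 of 7 different by 2-fold at 2.5 h relative to 0 h, against 7.19% of all genes (3.42% higher, 3.77% lower). At 4 h they had 0 of 7, against 8.75% of all genes (3.89% higher, 4.85% lower). Wild type cells had 1 of 7 at 2.5 h (Errfi1, higher), against 4.57% of all genes (3.54% higher, 1.03% lower). At 4 h they had 2 of 7 (Errfi1 higher, Egfr lower), against 14.5% (5.47% higher, 9.04% lower). Between knockout and wild type the count was 0 of 7 at 0 h, against 1.72% of all genes (0.811% higher, 0.908% lower). It was 2 of 7 at 2.5 h (Errfi1 lower, Egfr higher), against 4.56% (1.48% higher, 3.08% lower), and 1 of 7 at 4 h (Errfi1 lower), against 9.14% (4.99% higher, 4.15% lower). With so few members, these counts carry no more than the values of Errfi1 and Egfr. The median log2 difference of the 7 from 0 h was -0.21 and -0.21 in knockout at 2.5 h and 4 h and -0.48 and -0.64 in wild type. Between knockout and wild type it was 0.00, 0.24 and 0.43 at 0 h, 2.5 h and 4 h.

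**Figure D4:**
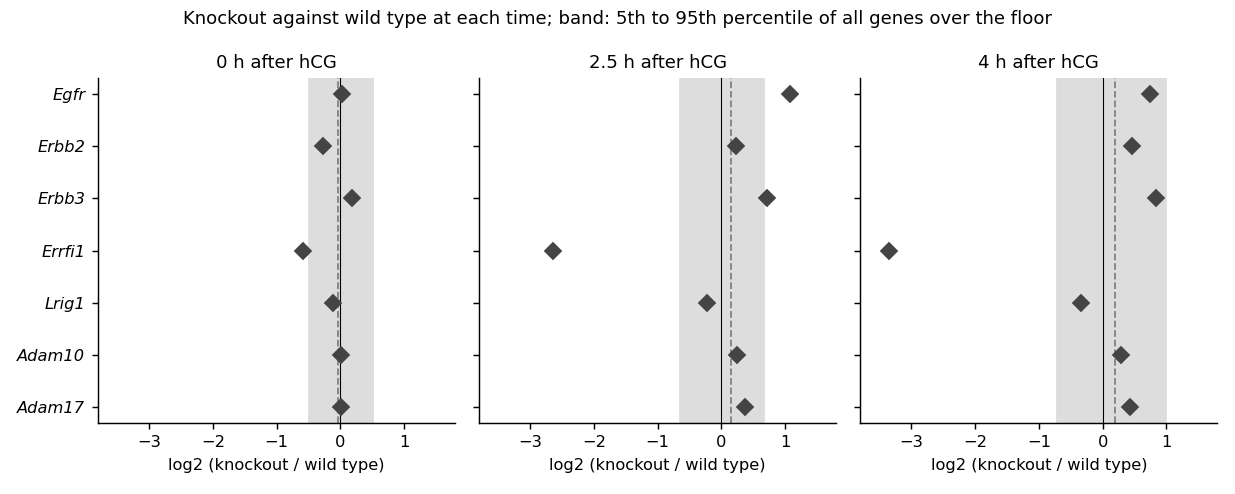
Log2 ratio of knockout over wild type (horizontal axes) for the 7 genes over the floor at 0 h, 2.5 h and 4 h, 1 pair of arrays per panel. The grey band runs from the 5th to the 95th percentile of all 11153 genes over the floor, the dashed line is their median and the solid line is 0. Errfi1 lies left of the band in each panel, at -0.59, -2.64 and -3.34, and Egfr (1.07) and Erbb3 (0.72) lie right of it at 2.5 h.

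The fits with limma, 3 in all, over the 11153 genes drew on all 6 arrays, with Benjamini-Hochberg adjustment over all genes and a threshold of 0.05. Each leaves 2 residual degrees of freedom made of differences between times or genotypes, so animal-to-animal spread is not in the p-values. No member passed any of them. For the genotype difference over the 3 times, which called 0.0359% of genes, Errfi1 had a log2 difference of -2.19 ± 0.49 (SE, limma adjusted p = 0.172), lower in knockout at 3 of 3 times. Erbb3 had 0.58 ± 0.17 (SE, limma adjusted p = 0.231), higher in knockout at 3 of 3 times. Egfr had 0.61 ± 0.22 (SE, limma adjusted p = 0.260), higher in knockout at 2.5 h and 4 h but level at 0 h (log2 difference 0.02). Fits that leave out a time have only 1 residual degree of freedom. Without the 0 h arrays the Errfi1 difference was -2.99 (limma adjusted p = 0.0133), with 4.22% of genes called. Without the 2.5 h arrays it was -1.96 (limma adjusted p = 0.301), with 0.143% called. Without the 4 h arrays it was -1.61 (limma adjusted p = 0.0115), with 2.2% called. The call thus depended on which time was left out.

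For the hCG response over both genotypes, which called 10.2% of genes, Errfi1 had 1.93 ± 0.52 (SE, limma adjusted p = 0.0708), Erbb3 -0.62 ± 0.18 (SE, limma adjusted p = 0.0831) and Adam10 -0.41 ± 0.14 (SE, limma adjusted p = 0.120). The genotype by hCG interaction called 0 genes by limma, with 1015 at an unadjusted p under 0.05. Errfi1 had -2.40 ± 0.42 (SE, limma adjusted p = 0.431), the 62nd smallest p-value of 11153. The corresponding value of Egfr was 0.89 ± 0.76 (SE, limma adjusted p = 0.668), and that of Erbb3 was 0.60 ± 0.23 (SE, limma adjusted p = 0.543).

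Counts of genes of the surrounding pathway are read against the share of all genes at least 2-fold apart between knockout and wild type, which at 2.5 h was 1.48% above and 3.08% below, and at 4 h 4.99% above and 4.15% below. Of 11 EGF-like ligand genes listed, 10 were on the array under a single symbol and 5 were over the floor, and in knockout at 2.5 h 4 of these were at least 2-fold below wild type and 0 above. Counts were 3 below and 0 above at 4 h, and 0 either way at 0 h. Btc (betacellulin) read 49, 256 and 400 in knockout cells at 0 h, 2.5 h and 4 h, and 46, 5768 and 13217 in wild type cells. Ereg (epiregulin) read 29, 7644 and 7360 in knockout and 35, 15945 and 15438 in wild type, where values under 64 are near background. Epgn (epigen) read 26, 158 and 180 in knockout and 27, 1146 and 2697 in wild type. For Btc the wild type signal after hCG was thus over an order of magnitude above knockout, and for Ereg about 2-fold above. Hbegf (heparin-binding EGF) went the other way in time, at 591, 149 and 126 in knockout and 746, 424 and 131 in wild type, with its highest values before hCG and nearly level genotypes at 4 h. Tgfa (transforming growth factor alpha), the remaining ligand over the floor, was named after its values were seen and read 266, 235 and 368 in knockout and 348, 300 and 348 in wild type, within 2-fold at each time.

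Proteins that join receptors to their signalling pathways showed smaller differences. Of 19 adaptor and proximal signalling genes over the floor, 1 was at least 2-fold below wild type in knockout at 2.5 h and 0 above, with a median log2 difference of 0.10 against 0.14 for all genes. The 1 was Pik3r1, a regulatory subunit of PI3 kinase, at 2581, 717 and 693 in knockout and 2507, 1889 and 2052 in wild type at 0 h, 2.5 h and 4 h. Its knockout values after hCG were the lowest of the 6. Counts at 4 h were 2 above and 1 below.

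Of 27 genes of receptor turnover and attenuation over the floor, 2 were at least 2-fold below wild type in knockout at 2.5 h and 0 above, with a median of 0.21, beside 3.08% of all genes below. Cblb, a ubiquitin ligase that acts on activated receptors, read 778, 528 and 896 in knockout cells at 0 h, 2.5 h and 4 h and 785, 1315 and 2095 in wild type cells. Socs3, a suppressor of cytokine receptor signalling, read 284, 223 and 294 in knockout and 304, 528 and 744 in wild type. Both were about level between genotypes at 0 h and higher in wild type after hCG. Counts at 4 h were 2 above and 3 below.

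Among 19 genes of sheddase relatives, partners and inhibitors over the floor, 1 was at least 2-fold below wild type in knockout at 2.5 h and 0 above, with a median of -0.05. Counts at 4 h were 2 above and 2 below. Timp1, an inhibitor of metalloproteases, read 229, 346 and 401 in knockout cells at 0 h, 2.5 h and 4 h and 479, 1392 and 5095 in wild type cells. In wild type at 2.5 h, 3 of the 19 were at least 2-fold higher than at 0 h and 0 lower. Of all genes, 3.54% were higher and 1.03% lower in that comparison. The 3 were Adamts1, a secreted protease of the ovulating follicle, Timp1, and Adam8, a membrane protease. Adamts1 read 674, 1843 and 1821 in knockout and 1029, 3058 and 2714 in wild type, and Adam8 read 173, 307 and 291 in knockout and 151, 335 and 713 in wild type.

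Of 11 transcripts listed as readouts of ERK feedback, 9 had a mean over the floor. Of these, 5 were at least 2-fold below wild type in knockout at 2.5 h and 6 at 4 h. At either time 0 were above, with medians of -1.12 and -1.60. At 0 h, 2 of the 9 (Egr1 and Dusp6) were already below and 0 above, with a median of -0.65. Of all genes, 0.908% were below at 0 h. Dusp4 was under the floor on each knockout array and passed the filter through its wild type values after hCG. Its place in the 2.5 h and 4 h counts is thus partly set by the filter. Etv4 and Etv5, left out by the filter, were named after their values were seen. At 4 h Etv5 read 17 in knockout and 125 in wild type, while Etv4 read 52 and 63, within 2-fold. Egr1, an immediate early transcription factor, read 273, 259 and 234 in knockout cells at 0 h, 2.5 h and 4 h and 2152, 9767 and 5596 in wild type cells. Dusp4, a MAP kinase phosphatase, read 44, 38 and 38 in knockout and 69, 397 and 891 in wild type. Spry2, an inhibitor of receptor tyrosine kinase signalling, read 102, 209 and 291 in knockout and 179, 627 and 883 in wild type. Dusp5 and Dusp6, also MAP kinase phosphatases, read 102, 150 and 119 and 26, 186 and 99 in knockout, against 150, 364 and 677 and 94, 404 and 872 in wild type. The Dusp genes and Spry2, like Errfi1, had their highest value on the wild type array at 4 h, whereas Egr1 had it at 2.5 h. In knockout, unlike Errfi1, 3 of the 9 were at least 2-fold above 0 h at each later time, and 0 below. Of all genes, 3.42% were higher at 2.5 h and 3.89% at 4 h. The 3 were Dusp6, Spry2 and Spred2, the last named after its values were seen. Spred2 read 229, 784 and 829 in knockout and 441, 961 and 1509 in wild type.

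**Figure D5:**
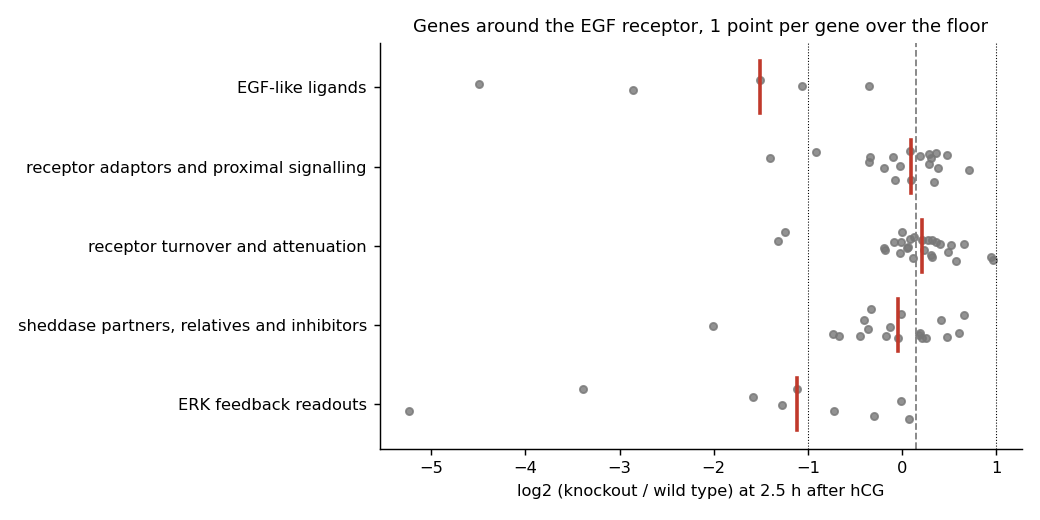
Log2 ratio of knockout over wild type at 2.5 h after hCG (horizontal axis) for genes over the floor in 5 lists, 1 point per gene, with vertical scatter added for legibility. Bars mark list medians (-1.51, 0.10, 0.21, -0.05 and -1.12 from top to bottom), the dashed line the median of all genes (0.14) and dotted lines 2-fold. The ligand and ERK feedback lists extend to the left, and most genes of the other 3 lists lie within 2-fold.

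Marker genes also differed between the arrays, and in whole-cell RNA fewer cells of a type cannot be told apart from less RNA per cell. The summed intensity of 4 cumulus expansion genes (Has2, Ptx3, Tnfaip6 and Ptgs2) was 103, 523 and 521 in knockout at 0 h, 2.5 h and 4 h. In wild type it was 128, 11695 and 17099, moving with Errfi1. At 0 h 0 of the 4 reached the floor in either genotype. Ptgs2 alone read 8192 and 11013 in wild type at 2.5 h and 4 h. This sum is therefore not read as an amount of cumulus cells. Of 6 theca markers, 2 were on the array under a single symbol, Cyp17a1 and Aldh1a1, with a sum of 10795, 24103 and 23668 in knockout and 10149, 7495 and 3768 in wild type. They moved separately. Cyp17a1 read 1845, 14251 and 13997 in knockout and 1994, 2037 and 1399 in wild type, and Aldh1a1 read 8950, 9852 and 9671 in knockout and 8155, 5458 and 2369 in wild type. The sum of 9 granulosa markers was 118169, 147482 and 143369 in knockout and 124440, 96279 and 74467 in wild type, and after hCG it was higher in knockout, as was Egfr. For 8 endothelial markers, of which 4 had a mean over the floor, the sum was 741, 788 and 800 in knockout and 796, 1402 and 1081 in wild type. Its Pecam1, Tek, Tie1 and Emcn had means under the floor. The sum of 12 oocyte markers was 30656, 12869 and 11478 in knockout and 16445, 10151 and 10814 in wild type. The summed levels of 8 macrophage and leukocyte markers ran from 1216 to 1688 in knockout and from 1165 to 1215 in wild type, those of 8 stromal and smooth muscle markers from 5156 to 6526 and from 5452 to 7752, and those of 8 surface epithelium markers from 2651 to 3571 and from 2459 to 2871. The surface epithelium sum hides single genes. Of its 6 markers over the floor, 1, 1 and 2 were at least 2-fold higher in knockout than in wild type at 0 h, 2.5 h and 4 h. At each time 0 were lower. Of all genes, 0.811%, 1.48% and 4.99% were higher. Krt7 was among them each time, at 220, 293 and 335 in knockout and 75, 99 and 137 in wild type. The part of any of these cell types in the Errfi1, Egfr or Erbb3 differences was not tested.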

How the data were processed

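RNA of ovarian granulosa cells was measured on 6 Affymetrix arrays, 1 per genotype and time, from biotin-labelled cRNA made from 5 ug of total RNA, per the labels' protocols. The deposited table holds an intensity per probe set and array, which the authors made with RMA in the affy package, per the submitters' processing notes. Tool versions are not given in the sources used here. As deposited by the authors, intensities were linear whole numbers from 9 to 59425, and log2 was taken of each. Rounding leaves coarse steps in dim probe sets, and the quantile step of RMA hides changes in total RNA per cell. The number of arrays limits the precision.

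Of 45101 probe sets, 34958 had 1 gene symbol, 932 several and 9211 none. Of the 34958, 34754 had their gene ID in the RefSeq table of GRCm38.p6, and 0 symbols changed. The brightest probe set by mean log2 stood for its gene. Pairwise comparisons, 7 in all, used the rule of size and have no p-value. The fits used limma 3.58.1 in R 4.3.3 on genes with a mean log2 of at least 6, and the code was tested on simulated data. Genes named besides the members and cell markers followed a rule, except where stated. Named were the 3 nearest patterns of each member spanning at least 1 (log2). From each list, up to 4 genes with the largest 2-fold difference at 2.5 h were added. The members and lists were chosen with earlier results of these data known. Alternatives were the probe set rule, the scaling, the floor, the fold, the limma filter and trend, and the times used. Promoter windows came from RefSeq (GRCm38.p6).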

Additional observations from a re-analysis of the deposited data

How the results depend on the processing

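No paired analysis was possible because each group has 1 array and the labels give no replicate numbers, and no replicate could be left out. Errfi1 kept its 4 calls under each alternative run. With a fold of 1.5, the members called were 2 and 1 in knockout at 2.5 h and 4 h, 3 and 5 in wild type, and, between knockout and wild type, 1 at 0 h, 3 at 2.5 h and 3 at 4 h. The count of 2 in wild type at 4 h was 1 with the mean of all probe sets, the second brightest probe set or median-centred arrays, because Egfr was lost. Likewise the count of 2 between knockout and wild type at 2.5 h was 1 with the mean of all probe sets, cyclic loess or median-centred arrays. By limma, the genotype difference called 4 genes, and 0 with no filter, with the mean of all probe sets or with cyclic loess, 37 with a mean log2 of at least 7, 8 with a trend, and 471, 16 and 245 without the arrays of 0 h, 2.5 h or 4 h (unadjusted p under 0.05: 2694, 1825 and 1839 for the 3 counts of 0). For the hCG response the fit called 1135 genes, and separate fits called 432 with no filter, 682 with the mean of all probe sets, 697 with cyclic loess and 107 at 2.5 h alone, with overlaps not counted. The interaction called 0 genes in each of its 6 settings. Over its 9 settings, Errfi1 had a limma adjusted p of 0.0115 to 0.301 for the genotype difference. Scaling also moved splits of all genes: in wild type at 4 h, 37.7% of the called genes were higher as deposited, 52.8% with cyclic loess and 60.8% with median-centred arrays. The cause of these shifts was not tested.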
